A study of Mus musculus with 6 samples.

Results

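The genes described here are 10 components of the DNA synthesis machinery, measured in B cell progenitors of old and young mice: the primase subunits Prim1 and Prim2, the replicative polymerase subunits Pola1, Pold1, Pole and Pole2, the sliding clamp Pcna, and the replication protein A (RPA) subunits Rpa1, Rpa2 and Rpa3. They were taken by name, as every probe set that the platform annotation pairs with 1 of these genes alone. This gave 12 probe sets of the 28940 in the deposited table, since Pcna and Rpa3 have 2 each. The cells were pro-B and pre-B cells, sorted together from BALB/c mice, an inbred strain, and not treated before RNA was taken. The old group held 3 arrays from mice of 24 months and the young group 3 arrays from mice of 2 months, each from 100 ng of amplified RNA on a whole-transcript array. The labels leave unsaid if the RNA of an array came from 1 mouse or from several, so p-values measure only the spread between these arrays. Levels are given on the log2 scale of the deposited intensity, and each difference is the old minus the young level.

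DNA polymerases cannot start a chain, so primase lays down a short RNA that polymerase alpha, with which it forms one complex, extends into DNA. Polymerase epsilon then copies the leading strand and polymerase delta the lagging strand, both held to the template by the PCNA ring, while RPA coats the exposed single strands. In the bone marrow, B cell progenitors alternate between bursts of division and resting phases in which immunoglobulin genes are rearranged, and genes of this machinery are transcribed mostly as cells prepare for S phase, in part through E2F factors.

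Stretches of promoter with the letters of an E2F site are shown here as background on these genes. A link between the matches and the values of the arrays was not tested. RefSeq start sites (GRCm38.p6) were matched for 8 of the 10 genes by gene ID, all but Prim2 and Pole. The windows run from 250 bases before to 50 bases after the start. On both strands, forms of the E2F site were searched, of which TTCCCGC and TTGGCGC are printed below; the others were TTCGCGC or TTGCCGC. Any of these forms was found in 6 of the 8 windows and in 9.69% of 27025 windows of all genes. Below, 30 bases around the match nearest the start are printed 5′ to 3′ on the strand of the gene, with the match in capitals.
Prim1, chr10:128015189-128015218, plus strand: ggcctgtcttgTTCCCGCcaattctcgtgt
Pola1, chrX:93632122-93632151, minus strand: tttcaggctggTTGGCGCggaatagagaga
Pold1, chr7:44548766-44548795, minus strand: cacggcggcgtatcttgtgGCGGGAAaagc
Pole2, chr12:69228162-69228191, minus strand: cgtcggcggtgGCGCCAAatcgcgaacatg
Rpa2, chr4:132768312-132768341, plus strand: gctgtcccttcGCGGGAAggagtttgtggc
Rpa3, chr6:8259152-8259181, minus strand: atctgcccgggTTGGCGCggccgcccgctg
In Pold1, Pole2 and Rpa2 the letters lie on the strand opposite to the gene. Pola1 held 4 matches in its window and the others 1 each. The letters CCAAT, whose reverse can overlap those of TTGGCGC, were found in 6 of the 8 windows against 37.9% of all windows. The GC box GGGCGG was likewise found in 6 of the 8, against 35.9% of all windows. A match describes the letters and does not show that a factor binds there. Of the 8 genes with a window, Pcna and Rpa1 carried no match of the E2F forms.

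The arrays were not alike in signal. On old replicates 1 and 2, 14.5% and 13.1% of the 23410 tested probe sets lay above the 95th percentile of the probe sets for olfactory and vomeronasal receptors, genes of sensory neurons, which served on each array as a mark of background and is called the receptor level below. On old replicate 3 the share was 45.6%, and on the young arrays it ran from 51.1% to 55.6%. All 12 member probe sets were above this level on the 3 young arrays and on old replicate 3, but only 3 were on old replicate 1 and 4 on old replicate 2. Among probe sets whose young mean exceeded 7, 89.1% and 84.3% lay more than 1 log2 below that mean on old replicates 1 and 2, against 2.47% on old replicate 3. Values are therefore given array by array, and the comparison of old with young is given with and without these 2 arrays.

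Of the 12 probe sets, 11 had all 3 old values below all 3 young values, and Pold1 did not. Over all tested probe sets such a separation, with old below young, occurred at 22.9%, and among those with a young mean above 7 at 65.7%. None of the 12 passed the threshold of an adjusted p under 0.05 in limma's moderated test, where 0% of all 23410 probe sets did and the smallest adjusted p was 0.101. An unadjusted p under 0.05 with limma was reached by 11 of the 12, all lower in old. Of all tested probe sets 46.8% reached it in either direction and 21.9% on the lower side. Without old replicate 3, 11 of the 12 were called lower and 0 higher, where 30.2% of all tested probe sets were called lower and 52.2% higher. The share for this fit was not taken among probe sets with a young mean above 7. On the old arrays left, 89.1% and 84.3% of those lay more than 1 log2 below their young mean. Over the 6 arrays the median difference of the members was -1.76, against 0.35 over all tested probe sets and -1.69 over those with a young mean above 7. Since 4 members had a young mean below 7, the 6026 tested probe sets within the young range of the members are given too, and their median was -1.47, with 66.2% separated downwards. On each old array a probe set at or below the receptor level has no measured size there, so each member's difference is also given below with such values raised to the receptor level; the median of the members was then -0.67. Pold1 had a lower old mean (-0.30) when each array was centred on its median, and Rpa2 a higher one (0.15) after quantile normalization, whereas the other 10 probe sets kept their direction under both scalings. In sorted cell populations such as these, fewer cells of a type and less RNA per cell cannot be told apart. The part of the weaker signal over background on old replicates 1 and 2 in these differences was not tested.

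**Figure D1:**
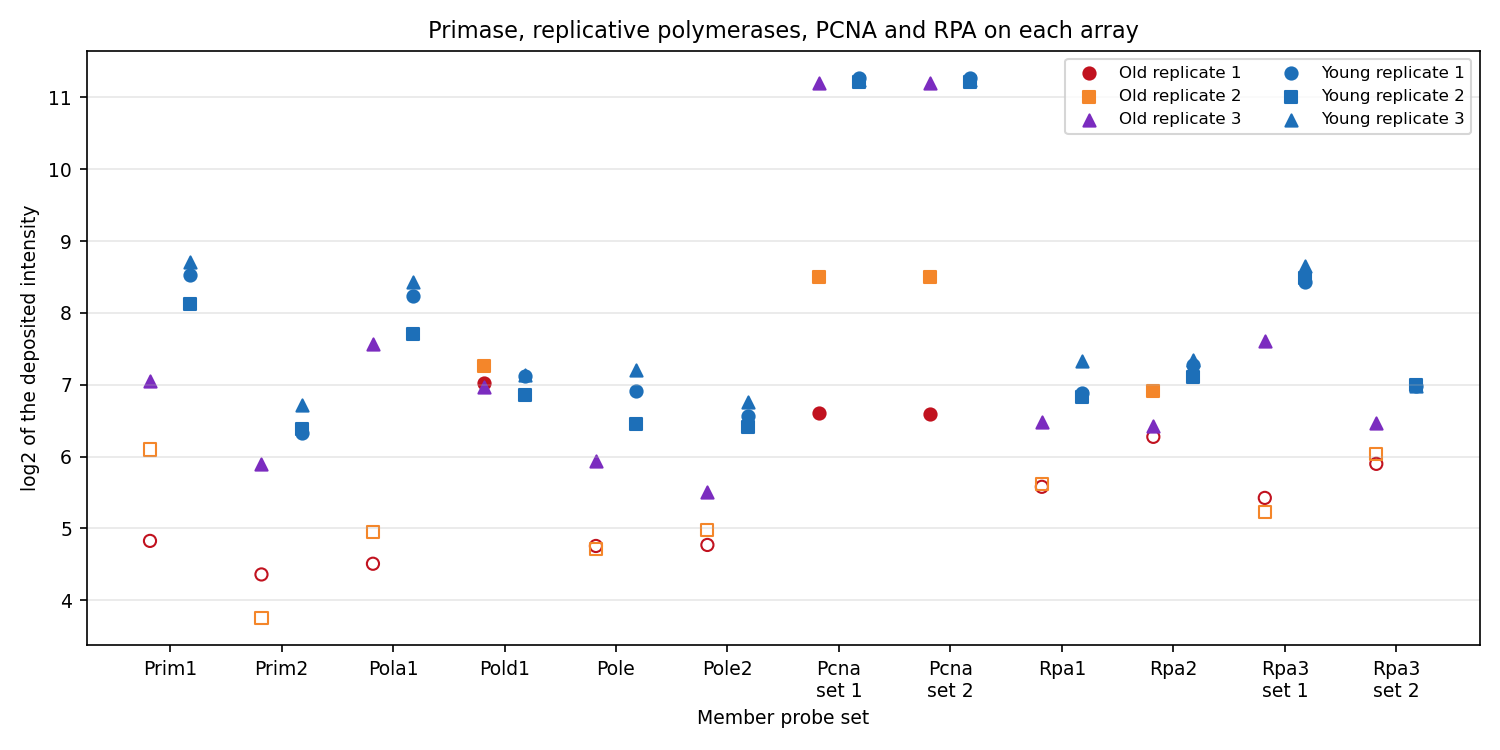
Log2 of the deposited intensity (vertical axis) of the 12 member probe sets (horizontal axis) on each array, old arrays to the left and young arrays to the right of each label; open symbols mark values at or below the receptor gene level of that array. All young points are filled and close together, 11 probe sets have every old point under every young point, and Pold1 has its 6 points between 6.85 and 7.26.

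Primase and polymerase alpha start each new strand. Prim1, the catalytic subunit of primase, read 4.82, 6.10 and 7.05 in old replicates 1 to 3 against 8.53, 8.12 and 8.71 in young replicates 1 to 3. The old values were spread over more than 2 log2 units and all lay below the lowest young value. The old mean was 5.99 ± 1.12 (SD, n = 3) and the young mean 8.45 ± 0.30 (SD, n = 3), a difference of -2.46 ± 0.55 (SE, adjusted p = 0.101 with limma), or -1.86 with old replicates 1 and 2 raised to the receptor level.

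Prim2, the regulatory subunit that hands the primer on, read 4.36, 3.75 and 5.90 in old replicates 1 to 3 against 6.32, 6.38 and 6.72 in young replicates 1 to 3. Old replicate 3 was the nearest to the young values, 0.42 below the lowest of them. The difference was -1.81 ± 0.53 (SE, adjusted p = 0.101 with limma), but -0.27 with old replicates 1 and 2 raised to the receptor level. Pola1, the catalytic subunit of polymerase alpha, read 4.51, 4.95 and 7.56 in old replicates 1 to 3 against 8.23, 7.70 and 8.43 in young replicates 1 to 3. Its old replicate 3 came within 0.14 of the lowest young value, so that the groups were parted by less than the young SD of 0.38. The difference was -2.45 ± 0.77 (SE, adjusted p = 0.101 with limma), -1.37 with the first pair of old arrays raised to the receptor level, and -0.56 on old replicate 3 alone. For all 3 genes old replicates 1 and 2 were not above the receptor level, so 1 of the 3 old arrays measured a size.

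The polymerases that copy the bulk of the genome did not share 1 pattern. Pole, the catalytic subunit of polymerase epsilon, read 4.75, 4.72 and 5.94 in old replicates 1 to 3 against 6.91, 6.45 and 7.20 in young replicates 1 to 3. Pole2, its second subunit, read 4.77, 4.98 and 5.50 in old replicates 1 to 3 against 6.56, 6.41 and 6.76 in young replicates 1 to 3. Both subunits were lower on every old array, with only old replicate 3 above the receptor level. The differences were -1.72 ± 0.40 (SE) for Pole and -1.49 ± 0.26 (SE) for Pole2 (adjusted p = 0.101 for both with limma). Raising old replicates 1 and 2 to the receptor level gave -0.64 for Pole and -0.51 for Pole2.

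Pold1, the catalytic subunit of polymerase delta, read 7.02, 7.26 and 6.96 in old replicates 1 to 3 against 7.12, 6.85 and 7.14 in young replicates 1 to 3. The groups overlapped on this probe set, which was above the receptor level on all 6 arrays. The old mean was 7.08 ± 0.16 (SD, n = 3) and the young mean 7.04 ± 0.16 (SD, n = 3), and the difference of 0.05 ± 0.21 (SE, adjusted p = 0.859 with limma) was smaller than either spread, with a 95% confidence interval from -0.46 to 0.55. Among the 4817 with a young mean above 7, 1.99% stayed within 0.1 of their young mean, or above it, on both old replicates 1 and 2, as Pold1 did. Pold1 lay at the lower edge of this class, and over all tested probe sets the median difference on these arrays was 0.48 and 0.43. The direction of the Pold1 difference over the 6 arrays was not kept under all scalings. Quantile normalization put it at 1.00 higher and centring on the array median at -0.30 (adjusted p = 0.207 and 0.21 with limma).

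Pcna, the clamp that holds the polymerases on DNA, gave the widest range among the old arrays. Its first probe set read 6.60, 8.49 and 11.20 in old replicates 1 to 3 against 11.27, 11.22 and 11.24 in young replicates 1 to 3. Old replicate 3 lay 0.02 below the lowest young array, a gap like the young SD of 0.03, while old replicates 1 and 2 differed from the young mean by -4.64 and -2.75. The difference was -2.48 ± 1.04 (SE, adjusted p = 0.106 with limma). The second probe set differed from the first by at most 0.007 on any array, so both count as 1 measurement. RefSeq lists the pseudogenes Pcna-ps1 and Pcna-ps2, and the annotation does not say which locus each probe set covers, so signal of near-identical copies cannot be separated. Unlike most members, Pcna stayed above the receptor level on old replicates 1 and 2, at 6.60 against 6.30 and 8.49 against 6.41. On these arrays the median difference of probe sets with a young mean above 7 was -2.54 and -2.22. The part of the lower array signal in the Pcna differences was not tested.

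The RPA subunits had differences from -2.44 to -0.71, and the probe sets of Rpa3 lay far apart in size. Rpa1, the large subunit that carries most of the DNA binding, read 5.58, 5.62 and 6.49 in old replicates 1 to 3 against 6.88, 6.83 and 7.33 in young replicates 1 to 3. Its difference was -1.12 ± 0.32 (SE, adjusted p = 0.101 with limma), with old replicates 1 and 2 not above the receptor level and -0.62 when they were raised to it.

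Rpa2, the subunit phosphorylated during replication stress, read 6.27, 6.92 and 6.42 in old replicates 1 to 3 against 7.28, 7.10 and 7.35 in young replicates 1 to 3. Here old replicate 3 was not the old array nearest to the young ones, since old replicate 2 lay 0.50 above it. Where the young mean was above 7, 5.29% of probe sets had old replicate 3 below the higher of old replicates 1 and 2. The difference of -0.71 ± 0.25 (SE, adjusted p = 0.101 with limma) became -0.69 with old replicate 1, which was not above the receptor level, raised to it.

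Rpa3, the smallest subunit, was measured by a pair of probe sets that disagreed in size. The brighter read 5.42, 5.23 and 7.60 in old replicates 1 to 3 against 8.43, 8.48 and 8.65 in young replicates 1 to 3, a difference of -2.44 ± 0.62 (SE). The dimmer read 5.90, 6.04 and 6.46 in old replicates 1 to 3 against 6.98, 6.99 and 6.98 in young replicates 1 to 3, a difference of -0.85 ± 0.23 (SE). Both had an adjusted p of 0.101 with limma and no overlap between the groups, and on both probe sets old replicates 1 and 2 were not above the receptor level. With these values raised to that level the differences were -1.75 for the brighter and -0.59 for the dimmer probe set. The annotation gives both the same transcripts and does not say which locus each covers, so signal of a similar copy cannot be separated and no single size of change is stated for this gene.

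**Figure D2:**
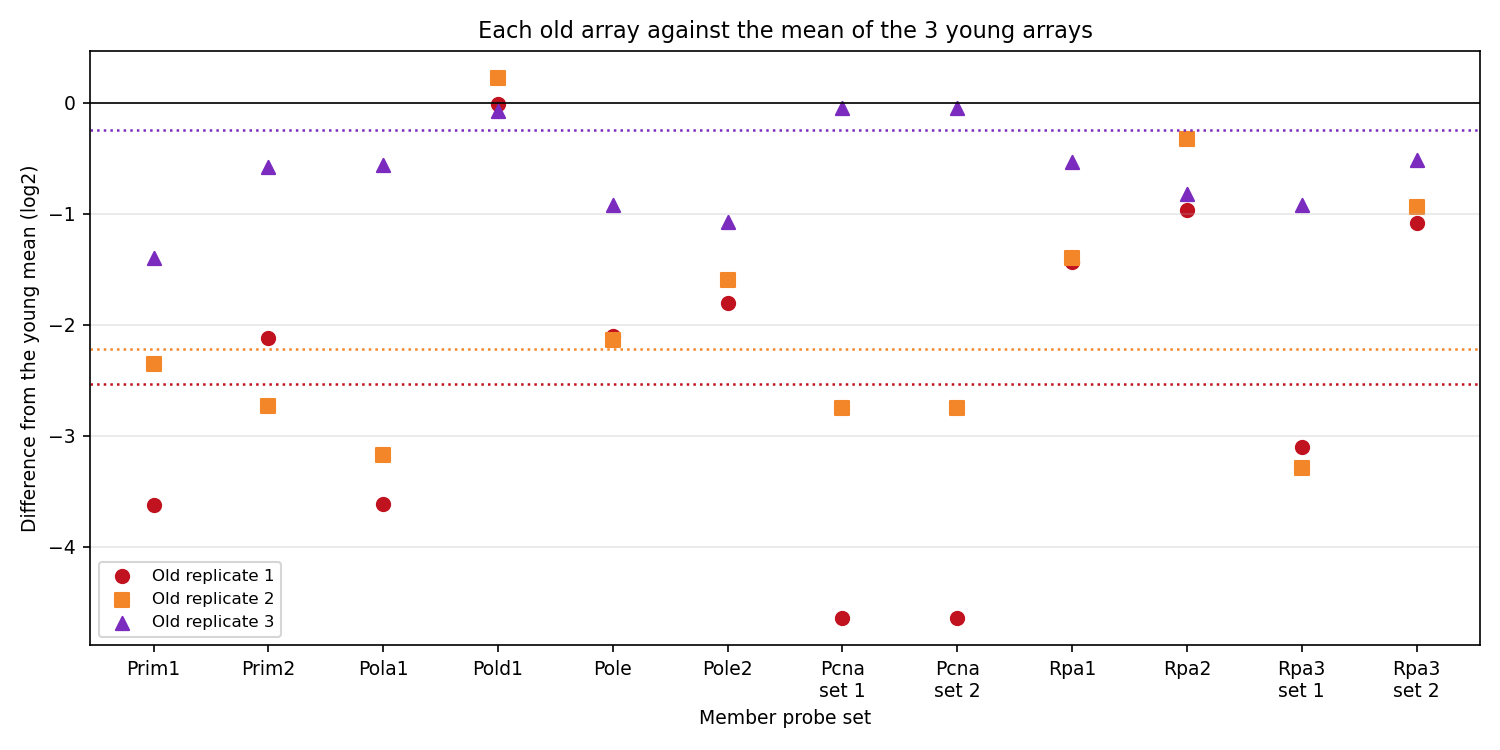
Difference of each old array from the mean of the 3 young arrays on the log2 scale (vertical axis) for the 12 member probe sets (horizontal axis); dotted lines mark the median of tested probe sets whose young mean exceeded 7 on the array of the same colour. Old replicates 1 and 2 scatter around their lines at -2.54 and -2.22, with Pold1 near 0, and on old replicate 3 all but Pold1 and Pcna lie under the line at -0.24.

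Old replicate 3 was nearer to the young arrays in signal than the other old arrays were, but lay outside their range. Its receptor level was 5.18 against 4.60 to 4.84 on the young arrays and 6.30 and 6.41 on old replicates 1 and 2, and its interquartile range was 2.44 against 2.72 to 2.89 and 1.52 and 1.51. On it 11 of the 12 probe sets lay below the lowest young array, Pold1 being the exception. Over all tested probe sets 31.8% did so on this array, and 67.1% of those with a young mean above 7. More than 0.5 log2 below the young mean lay 9 of the 12, against 9.53% of all tested and 23.3% of those with a young mean above 7. The median of the members on this array was -0.57, compared with 0.05 over all tested, -0.24 over those with a young mean above 7 and -0.26 over those within the young range of the members. In that last class 68.9% lay below the lowest young array, 24.8% lay more than 0.5 below the young mean and 14.5% were called lower. With this single old array against the 3 young arrays, limma called 5 of the 12 lower, where 5.24% of all tested and 14.1% of those with a young mean above 7 were called lower. This fit assumes that the lone old array varies as the young arrays do, so it compares that array with them and not the ages. Marker sums differed on this array too: those of pro-B and pre-B cells came to 8024 against 9180 to 9689 on the young arrays, and those of mature B and plasma cells to 1579 against 1145 to 1554. The median differences of the lists on this array were -0.24 and 0.08, and single markers were uneven. Igll1, the surrogate light chain, differed by -1.28 and Pax5 by 0.22. Dntt differed by -2.02, but its value of 5.13 was below the receptor level of this array, so this is not a measured size. The young values of Dntt ran from 6.59 to 8.18. Cd74, the invariant chain of MHC class II, differed by 0.88 and H2-Aa by -0.06. These markers were named after their values were seen. The part of the lower signal and of these markers in the members' values on this array was not tested.

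The 5 calls on old replicate 3 were Prim1, Pole2, Rpa2 and both probe sets of Rpa3. Prim1 differed by -1.40 ± 0.22 (SE, adjusted p = 0.0182 with limma), and 0.226% of all tested probe sets lay further below their young mean on that array. Pole2 differed by -1.07 ± 0.16 (SE, adjusted p = 0.0168 with limma) and Rpa2 by -0.82 ± 0.14 (SE, adjusted p = 0.0243 with limma). The brighter probe set of Rpa3 differed by -0.92 ± 0.14 (SE, adjusted p = 0.0178 with limma) and the dimmer by -0.52 ± 0.12 (SE, adjusted p = 0.0494 with limma). The genes past the threshold were thus the catalytic primase subunit, 1 epsilon subunit and the smaller RPA subunits. Pole, with the larger young spread, differed by -0.92 ± 0.26 (SE, adjusted p = 0.0711 with limma). Prim2, Pola1 and Rpa1 differed by -0.58, -0.56 and -0.53 and did not pass. Without young replicate 1 limma called 0 of the 12, and 189 rather than 1638 of all tested probe sets.

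Pcna and Pold1 lay nearest to 0 on old replicate 3. Pcna differed by -0.05 ± 0.12 (SE, adjusted p = 0.825 with limma) and Pold1 by -0.08 ± 0.16 (SE, adjusted p = 0.779 with limma). Pold1 moved to the higher side (0.15) after quantile normalization of these 4 arrays, and Pcna kept its sign under both scalings. The 95% confidence intervals from limma ran from -0.34 to 0.24 for Pcna and from -0.44 to 0.29 for Pold1.

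**Figure D3:**
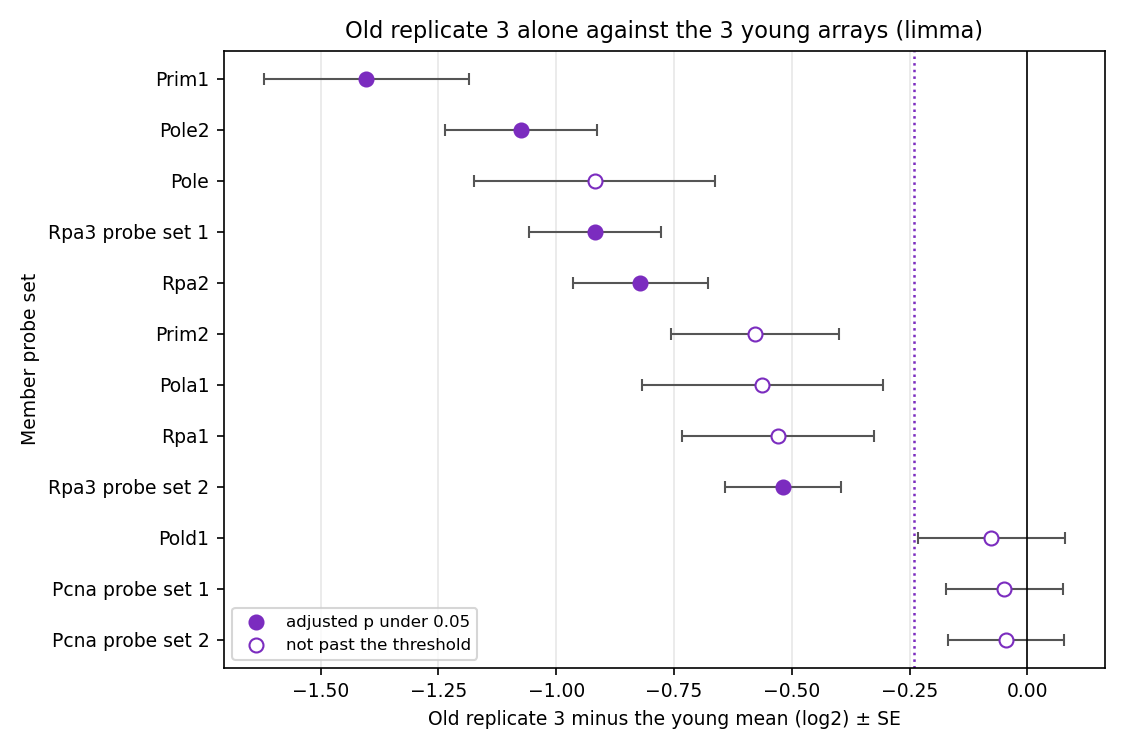
Old replicate 3 minus the young mean on the log2 scale (horizontal axis) with the limma SE as bars, for the 12 member probe sets (vertical axis) in order of difference; filled points passed an adjusted p of 0.05, and the dotted line is the median, -0.24, of tested probe sets whose young mean exceeded 7. Prim1 at -1.40 and Pole2 at -1.07 are farthest from 0, and Pold1 and Pcna lie between the dotted line and 0.

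Subunits of a complex can be set against each other on the same array, where only the variation of their difference over arrays is read. On old replicate 3, Prim2 minus Prim1 was -1.15, outside the young range of -2.21 to -1.73, so Prim1 was lower relative to Prim2 than on the young arrays. Pola1 minus Prim1 was 0.51 there, against -0.42 to -0.27 on the young arrays, so Prim1 was lower relative to Pola1 as well. Pole2 minus Pole, at -0.43, lay within the young range of -0.44 to -0.04. The 2 polymerase epsilon subunits therefore kept their difference within the young range on this array. Its interquartile range was narrower than that of the young arrays, at 2.44 against 2.72 to 2.89. Prim1 was brighter than Prim2, with young means of 8.45 and 6.48. The part of the narrower spread in these differences was not tested.

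Within RPA, Rpa3 minus Rpa2 was 1.18 on old replicate 3, inside the young range of 1.16 to 1.38, with the brighter probe set of Rpa3, but 0.04 with the dimmer, above the young range of -0.37 to -0.11. Rpa3 minus Rpa1 was 1.12 with the brighter probe set, below the young range of 1.32 to 1.65, but -0.02 with the dimmer, inside that of -0.35 to 0.16. Rpa2 minus Rpa1, at -0.06, lay below the young range of 0.02 to 0.39. Rpa2 was thus lower relative to Rpa1 than on the young arrays, while the place of Rpa3 depended on its probe set. These differences have no test, since 1 old array is set against 3. The brighter probe set of Rpa3 had a young mean of 8.52 and Rpa1 one of 7.02. The part of the narrower spread of old replicate 3 in the RPA pairs was not tested. On old replicates 1 and 2 at least 1 gene of each of these pairs was not above the receptor level.

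Only Pold1 minus Pcna could be read on all 6 arrays. It was 0.42, -1.23 and -4.23 on old replicates 1, 2 and 3 and -4.15, -4.37 and -4.11 on the young arrays. Old replicate 3 fell within the young range, and the other two old arrays lay 4.63 and 2.98 above the young mean. Those outlying arrays had a narrower spread of signal, in which bright and dim probe sets lie closer together. Their interquartile ranges were 1.52 and 1.51, while the young arrays had 2.72 to 2.89. Pcna was bright, with a young mean of 11.24, and Pold1 had one of 7.04. The part of the narrower spread in the Pold1 minus Pcna values was not tested. An unequal change of the clamp and the delta polymerase is therefore not concluded.

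**Figure D4:**
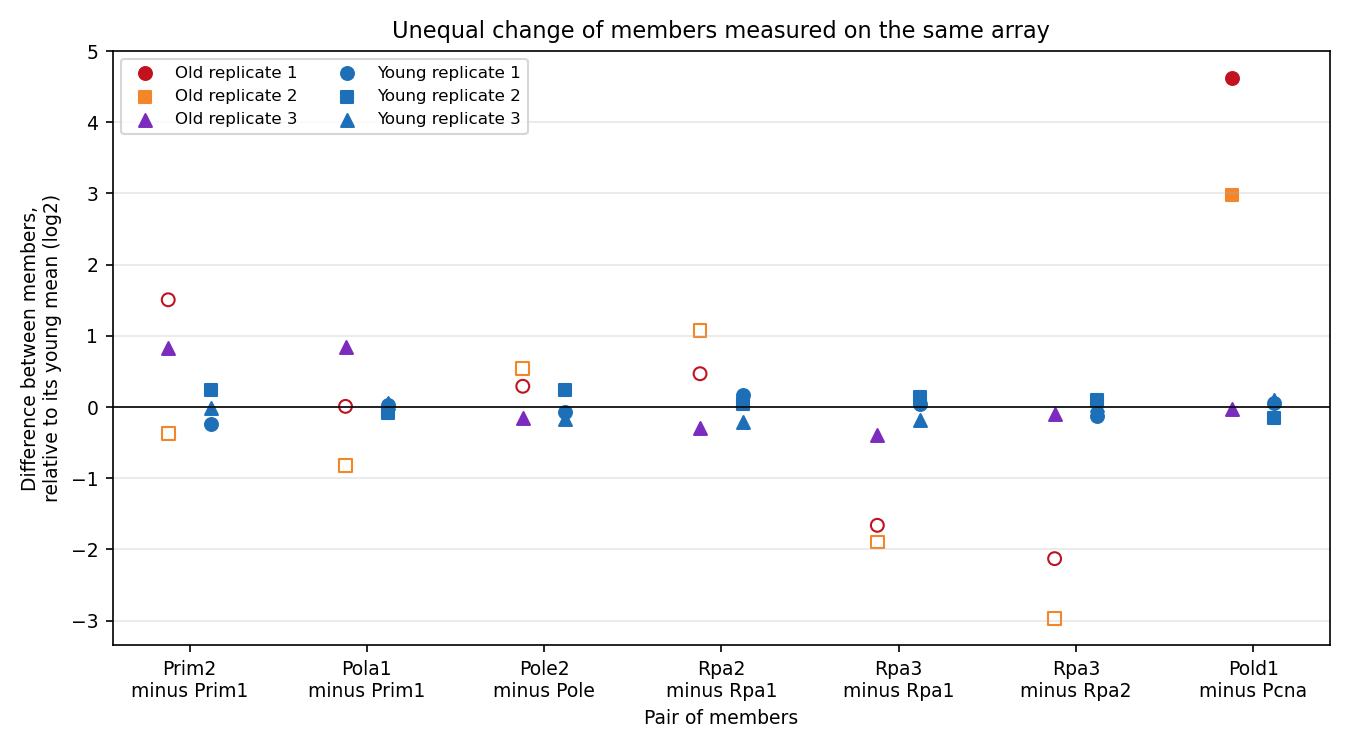
Difference between the log2 values of 2 members on the same array, relative to its mean over the young arrays (vertical axis), for 7 pairs (horizontal axis), Rpa3 by its brighter probe set; open symbols mark arrays on which at least 1 of the pair was not above the receptor level. For Prim2 minus Prim1 and Pola1 minus Prim1 old replicate 3 stands 0.82 and 0.84 above the young mean, and for Pold1 minus Pcna old replicates 1 and 2 stand 4.63 and 2.98 above it.

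Other genes of the replication fork, other DNA polymerases and damage signalling genes were taken from 6 lists with 57 genes. All but Poln had a probe set to themselves, and each is given by its brightest probe set. Of these 56 genes limma called 0 in the comparison of 3 old with 3 young arrays, and 42 reached an unadjusted p under 0.05 on the lower side, where 21.9% of all tested probe sets did. The old mean was lower for 53 of them, against 38.1% of all tested probe sets, and higher for Chtf18, Poll and Atrip. The median difference of the 56 genes was -1.32, against -1.69 over tested probe sets with a young mean above 7. On old replicate 3 these medians were -0.42 and -0.24. All 3 old values lay below all 3 young values for 45 of the 56, against 22.9% of all tested and 65.7% of those with a young mean above 7. That class was not matched to the young levels of these genes. In the fit of old replicate 3 alone, 14.1% of that class were called lower, a higher share than over all tested probe sets. Most calls of that fit were lost without young replicate 1, and the counts of these lists were not repeated without it. Only 4 and 3 of the 56 were above the receptor level on old replicates 1 and 2, against 51 on old replicate 3, so the differences over the 6 arrays in these lists are not measured sizes for most genes. On old replicate 3 alone 14 were called lower and 0 higher, where 5.24% and 1.76% of all tested probe sets were called lower and higher.

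The list of other subunits of polymerases alpha, delta and epsilon held 7 genes, among them Poldip2, which encodes a partner of delta and not a subunit. All had lower old means, and their median difference was -1.06. Pold3, a delta subunit, differed the most at -2.11 ± 0.55 (SE) and was the 1 gene of this list called lower on old replicate 3 (-0.80, adjusted p = 0.0494 with limma). Pold2, the delta subunit nearest to 0, differed by -0.64 ± 0.21 (SE). Pold1, the catalytic subunit of the same enzyme, was at 0.05, and the differences between delta subunits were not tested.

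Of 9 clamp loaders and unloaders, which place PCNA on DNA and remove it, 8 had lower old means (median -1.79), and 4 were called lower on old replicate 3. Dscc1, of the loader used in sister chromatid cohesion, differed by -2.37 ± 0.59 (SE) over the 6 arrays and by -1.34 on old replicate 3 (adjusted p = 0.0198 with limma). Chtf18, of the same loader, had a higher old mean by 0.34 ± 0.27 (SE) and was above the receptor level on 1 array.

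Okazaki fragment maturation, which removes primers and joins the fragments, had lower old means for 7 of 7 genes (median -1.02), and 1 was called lower on old replicate 3. Lig1, the ligase that seals the fragments, differed by -1.48 ± 0.37 (SE), and Rnaseh2b by -0.58 ± 0.24 (SE). Fork coupling and termination factors had lower old means for 9 of 9 genes (median -2.15), and 2 were called lower on old replicate 3. Top2a, the topoisomerase of dividing cells, read 4.95, 5.78 and 10.21 in old replicates 1 to 3 against 10.55, 10.36 and 10.63 in young replicates 1 to 3. On old replicate 3 Top2a differed from its young mean by -0.31, against -0.05 for Pcna. Donson differed by -0.26 ± 0.19 (SE).

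DNA polymerases outside the replication fork had lower old means for 13 of 14 genes (median -0.88), with 3 called lower on old replicate 3. Polh, which copies past ultraviolet damage, differed by -2.40 ± 0.66 (SE), while Poll, used in end joining, had a higher old mean by 0.35 ± 0.26 (SE) and was not above the receptor level on any array. Of 10 genes listed as RPA partners in damage signalling, a list that also held the mitochondrial protein gene Ssbp1, 9 had lower old means (median -1.40). Their median difference on old replicate 3 was -0.30. Chek1, the kinase activated by stalled forks, differed by -1.92 ± 0.32 (SE) over the 6 arrays and by -1.26 on old replicate 3 (adjusted p = 0.0105 with limma). Atrip, the partner of ATR that binds RPA, had a higher old mean by 0.19 ± 0.21 (SE) and read 6.55, 6.20 and 6.39 in old replicates 1 to 3 against 6.11, 6.21 and 6.24 in young replicates 1 to 3, with overlap. None of the genes named from these lists passed the threshold over the 6 arrays.

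The genes whose differences on the 3 old arrays came nearest to the median of the members (-2.11, -2.25 and -0.57) were Dpy19l4, Clcc1, Ubr3, Vps29 and Otub2, among 18703 genes. Their root mean square distance from it over the 3 old arrays ran from 0.037 to 0.064. Dpy19l4 differed by -2.10, -2.31 and -0.55 from its young mean. These genes were at or below the receptor level on old replicates 1 and 2, as most members were.

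The labelled cell type was checked against 12 markers of pro-B and pre-B cells that had a probe set to themselves. All 12 were above the receptor level on the young arrays, 11 on old replicate 3, and 5 and 4 on old replicates 1 and 2. Their summed intensity ran from 3054 to 8024 on the old arrays and from 9180 to 9689 on the young arrays. Neutrophil markers were above the receptor level for 10 of 10 genes on the young arrays and on old replicate 3 and for 3 and 4 on the other old arrays, with sums from 2069 to 8514 and from 8182 to 10626. Markers of mature B and plasma cells summed to 453, 432 and 1579 on old replicates 1 to 3 and to 1145 to 1554 on the young arrays, with 9 of 9 genes above the level on the young arrays and old replicate 3 and 1 of 9 on each other old array.

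Sums over different lists are not compared, since the lists differ in length and probe sets. Monocyte and macrophage markers (6 measured) summed to 206 to 419 on the old and 559 to 1187 on the young arrays, with Adgre1 and Fcgr1 not above the receptor level on any array. T cell markers (5 measured) summed to 131 to 214 on the old and 103 to 138 on the young arrays, with Cd4 and Cd8a not above it on any array. NK cell markers (6 measured) summed to 109 to 185 and 133 to 216, with Ncr1, Klrb1c, Klrd1 and Eomes not above it. Erythroid markers (4 measured) summed to 184 to 308 and 165 to 255, and megakaryocyte markers (4 measured) to 104 to 183 and 95.9 to 96.7, with Pf4 and Ppbp not above it. The part of other cell types and of the signal of each array in the differences of the replication genes was not tested.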

How the data were processed

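Values were log2-transformed from the deposited intensity, which the authors summarised per probe set with RMA, per the submitters' processing notes. The RMA version was not given in the sources used here, nor were its settings. The deposited intensity is linear, from 3.58 to 8502. The arrays use 1 colour, and their number limits the precision. Genes come from the platform annotation. The 23410 probe sets paired with at least 1 gene entered the limma fit (limma 3.58.1, R 4.3.3; age group only, 2-sided, Benjamini-Hochberg over all tested). Exact permutation of 3 against 3 arrays cannot give a 2-sided p under 0.1, so none was run. The receptor level is the 95th percentile of 1375 receptor probe sets. The code was tested on simulated data in which both groups had the spread of the young arrays. For 4 of the 12 member probe sets the old SD was above 10 times the young SD. The simulation did not cover that setting. Further software: matplotlib 3.10.9, numpy 2.4.6, pandas 2.3.3 and Python 3.11.15.

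Members, lists and tests were chosen with earlier results of these data known. All members were named. From each pathway list the genes with the largest fall and the largest rise (or smallest fall) were named, and the 5 genes nearest to the members, leaving out unnamed gene models. Deviations of same-numbered arrays from their group means correlated at 0.157, 0.15 and 0.279. This passes the limit of 0.1 for a pairing, which the labels do not state. Old replicate 1 with young replicate 2 (0.153) and old replicate 2 with young replicate 1 (0.141) passed it too. The correlations therefore do not single out same-numbered arrays among replicates 1 and 2. Alternatives are given at the end.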

Additional observations from a re-analysis of the deposited data

How the results depend on the processing

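Over all 6 arrays, the count of called probe sets stayed at 0 in all and at 0 of the 12 members with the replicate number as a block, without dim probe sets, with all probe sets, under centring, quantile normalization and trended robust moderation, at an adjusted p under 0.1, and with a 1.5-fold threshold. With the replicate block the smallest adjusted p of the members was 0.081 and the median difference stayed at -1.76; the block changed no call. Estimated array weights called 19998 probe sets and 11 members. Leaving out single arrays gave 0 to 19285 called probe sets and 0 to 11 members, the higher values only without old replicate 3. The median difference ran from -2.27 to -1.40 over those fits, and was -1.68 with probe sets averaged per gene, -1.72 with Pcna counted once and -0.67 with old values raised to the receptor level, these last alternatives chosen after seeing the data. With old replicate 3 as the only old array it was -0.57, with 1638 probe sets and 5 members called. Pold1 turned to -0.30 under centring and to -0.077 with old replicate 3 alone, and ranged from -0.048 (without young replicate 2) to 0.11 (without old replicate 3) when single arrays were left out. Rpa2 turned to 0.15 under quantile normalization. For old replicate 3 alone, alternatives chosen after seeing the data called 4 to 7 members at other settings and 0 to 7 when a young array was left out. The probe sets called there numbered 2675 under centring, 3733 at an adjusted p under 0.1, and 189 to 3920 when a young array was left out. The causes were not tested. Signal over background limits the sizes on old replicates 1 and 2, where 8 member probe sets were not above the receptor level on either.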
